A study of Danio rerio with 8 samples.

Results

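Mostly included frame-breaking exons are exons whose length is not a multiple of 3 and that most wild type transcripts with the same neighbouring exons keep. Leaving such an exon out shifts the reading frame wherever both neighbours are coding. They were taken from the authors' deposited table of skipped exon events, in which each row is an exon with the exon before it and the exon after it. The members are the events with an exon longer than 30 bases and not a multiple of 3, at least 10 junction reads on average over the 8 libraries, and a mean inclusion level of at least 0.8 in the wild types. This rule gave 16859 of the 30752 events, which hold 15676 exons in 8799 genes, and 1089 exons appear in more than 1 member event. The inclusion level is the share that keeps the exon among transcripts with the event's neighbouring exons, not among all transcripts of the gene. It is estimated from the reads across the event's junctions and scaled for the longer target that inclusion offers. An exon in more than 1 event can have a different level in each. The exons were chosen by their inclusion level in the wild types, so every difference in inclusion between the genotypes is given as a description with no test of its own.

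The larvae were zebrafish of the TLEK strain, sampled whole at 5 days after fertilization, in a study of what upf1 does in lymphocyte development. PolyA RNA was sequenced from 4 libraries of upf1 mutants, in which both copies carry a nonsense mutation, and from 4 libraries of wild types. The labels name no further allele or treatment in either. Gene counts summed to between 75335048 and 96104507 per library. Neither the clutch of each library nor the number of larvae in it is given, so a p-value speaks only of the spread among these 8 libraries, which may be technical. In whole larvae fewer cells of a type and less RNA per cell cannot be told apart. The splicing table names its 2 sample sets by number and not by genotype. Each position in it was tied to a labelled library by comparing junction reads per gene with the gene counts: the best match had a correlation across genes of 0.884 to 0.949, the next best 0.226 to 0.579, and the first set matched the 4 mutants and the second the 4 wild types in the order of their numbers. The genotype of each inclusion level below therefore rests on that match and not on a label.

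Nonsense-mediated decay degrades mRNAs whose stop codon lies too far upstream, and the RNA helicase Upf1 is its central factor. A transcript that skips a coding exon of such a length is usually read out of frame and soon meets a stop codon, which makes it a typical substrate of the pathway. Several families of splicing regulators are known to keep their own levels in check by switching their transcripts into such forms. Which of these exons are coding is not known from the files used here, and "frame-breaking" refers to the length alone.

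The upf1 mRNA was itself higher in mutants, at 288, 276, 294 and 284 CPM (gene counts scaled to library size) in mutant replicates 1 to 4, against 132, 123, 130 and 131 CPM in wild type replicates 1 to 4. The groups did not overlap (2.21-fold, log2 fold change 1.15, SE 0.0685, adjusted p = 1.06e-05 by edgeR's quasi-likelihood test with Benjamini-Hochberg adjustment). Since a mutation of this kind can leave the mRNA in place, its level is no check of the genotypes. Of the 2 members in upf1, 0 had lower inclusion in mutants in the authors' deposited table.

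Skipping reads over the members made up 498.0, 498.3, 477.0 and 458.2 per 100000 junction reads in mutant replicates 1 to 4, against 124.7, 109.5, 128.9 and 125.8 in wild type replicates 1 to 4. Every mutant library lay above every wild type library. A skipping read was present at 41.5% to 46.7% of the members in each mutant, and at 13.8% to 16.2% in each wild type. Exons that passed the same inclusion and coverage thresholds and whose length is a multiple of 3 numbered 9274. They had 262.9 to 305.3 skipping reads per 100000 in mutants and 144.2 to 185.1 in wild types. A skipping read was present at 36.2% to 40.1% of these in each mutant and at 22.6% to 25.8% in each wild type. The frame-breaking exons thus had fewer skipping reads than the frame-preserving ones in wild types and more in mutants. Both sets were chosen by their wild type level, and 10445 members and 4279 frame-preserving exons had skipping reads in mutants only. The gap between genotypes is therefore partly set by the choice of exons. The mean inclusion level of the members was 0.974 to 0.976 in the mutants and 0.993 to 0.994 in the wild types. That of the frame-preserving exons was 0.978 in the mutants and 0.986 to 0.987 in the wild types. Both sets thus passed the same threshold but differed in level.

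**Figure D1:**
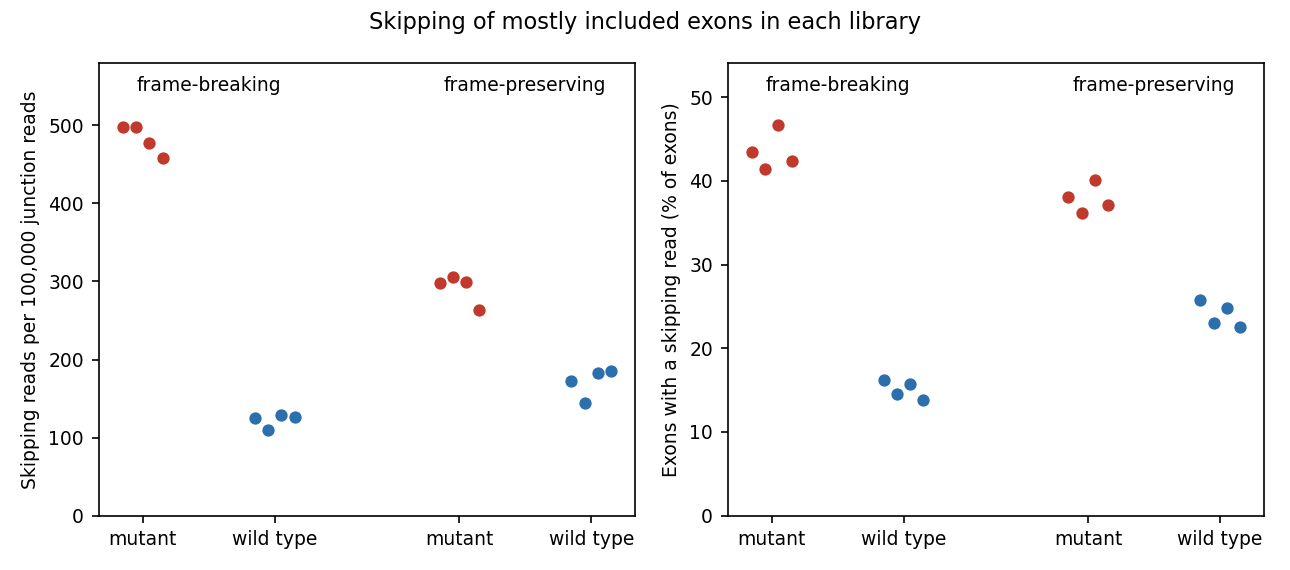
Skipping reads per 100000 junction reads (left, y axis) and the share of exons with at least 1 skipping read (right, y axis, in percent) for mostly included frame-breaking and frame-preserving exons, with 1 point per library. Among frame-breaking exons the mutants sit between 458.2 and 498.3 skipping reads and the wild types between 109.5 and 128.9.

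At an FDR under 0.05, the authors' deposited table gave lower inclusion in mutants for 1561 members, which is 9.26% of them, and higher inclusion for 36 (0.214%). Over all 30752 events the same rule called 7.54% lower, 1.25% higher and 8.79% in either direction. Nothing is read from the comparison, because the rule for members used the wild type levels from which the difference is taken. Among the frame-preserving exons, chosen by the same thresholds, the table called 395 lower (4.26%) and 42 higher (0.453%). The 1561 events hold 1523 exons of 1335 genes, of which 1173 have 1 such exon, 143 have 2 and 19 have 3 or more. Exons are told apart by exact start and end, so overlapping versions that share skipping reads count separately. All mutants lay below all wild types in 991 of the 1561, and in 1533 of all members (9.09%, against 6.73% of all events). All mutants lay above all wild types in 19 members (0.113%, against 0.832% of all events).

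Most differences in the authors' deposited table were small. The median difference in inclusion level, mutant minus wild type, was -0.005 over all members and -0.002 over the frame-preserving exons. The difference was negative in 13054 members, positive in 2719 and 0 in 1086. Negative ones made up 77.4% of the members, 62.2% of the frame-preserving exons and 69.5% of all events. No positive difference is possible at a wild type mean of 1, as in 10572 members and 4350 frame-preserving exons. The signs are therefore partly fixed in advance. The members called lower had a median difference of -0.079, and 622 of the 16859 members were called lower by at least 0.1, 234 by at least 0.2 and 24 by at least 0.5. Of all 30752 events, 1003, 384 and 49 were called lower by at least as much. Of the 9274 frame-preserving exons, 161, 43 and 4 were. In 50 members the mutants' mean level was below 0.5. Of the transcripts with the event's neighbouring exons, most then kept the exon in wild types and lacked it in mutants. Among the members nearest above the threshold of 0.8 were exons of nim1k and stat4, with mutant means of 0.922 and 0.896 and wild type means of 0.801 and 0.803. Nearest below it were exons of myh7bb, ptbp2b and sulf1, with mutant means of 0.250, 0.241 and 0.766 and wild type means of 0.796, 0.796 and 0.794. The exons of nim1k, stat4 and sulf1 were not called and their genotypes overlapped, while those of myh7bb and ptbp2b were called lower without overlap.

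**Figure D2:**
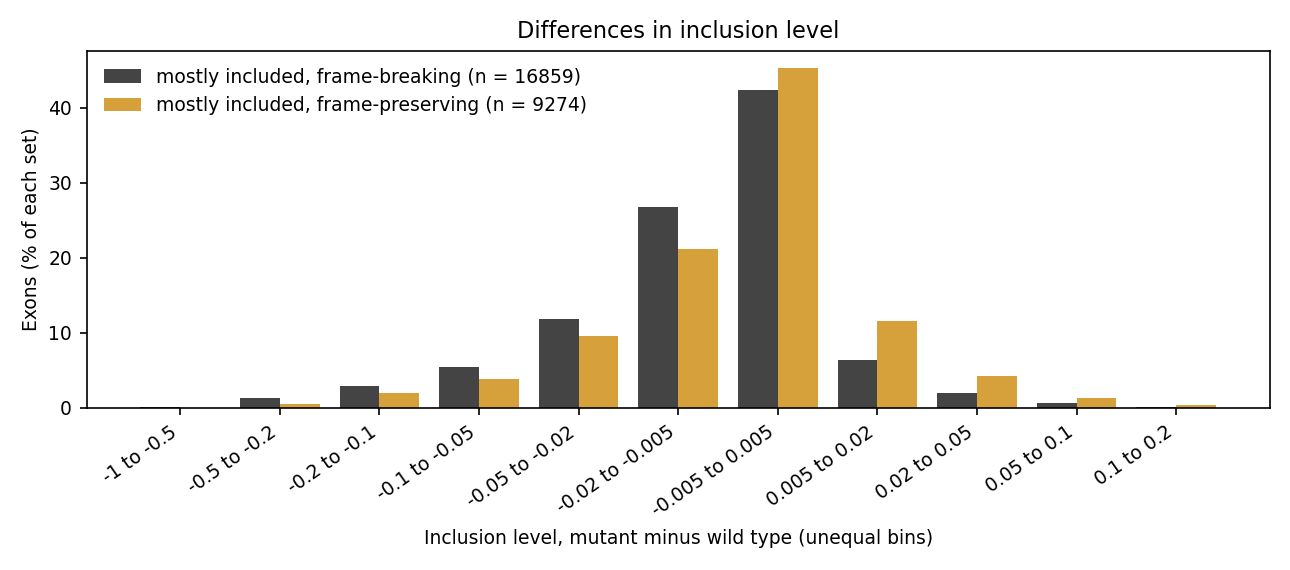
Share of exons (y axis, in percent of each set) in bins of the difference in inclusion level, mutant minus wild type (x axis, bins of unequal width), for mostly included frame-breaking and frame-preserving exons. Differences from -0.005 to 0.005 hold 42.3% of the frame-breaking and 45.3% of the frame-preserving exons, and the bins below -0.005 each hold a larger share of the frame-breaking ones.

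An event enters the table only with a skipping read in some library: none of the 30752 lacks one. Members with skipping reads in mutants only numbered 10445, those with skipping reads in wild types only 1787, and 4627 had them in both genotypes. The 6414 members with a skipping read in a wild type library need no skipping read in mutants to enter. Their minimum of 10 junction reads still averages over the libraries of both genotypes. Of these 6414, a restriction made after the data were seen, the authors' deposited table called 922 lower (14.4%) and 36 higher (0.561%). The same restriction left 4995 frame-preserving exons with 283 called lower (5.67%) and 42 higher (0.841%). Of all events it left 15168, with 1525 called lower (10.1%) and 383 higher (2.5%).

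Both sets were chosen by their wild type level, so the shares below are descriptions and no test. The share called lower in the authors' deposited table was above that of frame-preserving exons at every depth, length and wild type level examined. By quartile of junction reads, from low to high, it was 9.76%, 10.2%, 9.84% and 7.21% for the members, against 5.08%, 4.82%, 4.34% and 2.64% for frame-preserving exons in the same ranges. By quartile of exon length it was 11.2%, 10.002%, 8.54% and 7.26%, against 5.46%, 4.19%, 3.59% and 3.51%. It was 21.3% at a wild type level of 0.80 to 0.90, 26.7% at 0.90 to 0.95, 18.5% at 0.95 to 0.99 and 7.52% at 0.99 to 1, against 8.36%, 11.3%, 8.45% and 2.86%. Shorter exons and those with a wild type level under 0.99 were thus called more often than the others in both sets. At a level of 0.99 to 1, 10445 of 14507 members and 4279 of 7125 frame-preserving exons had no skipping read in wild types.

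The 2 ways of breaking the frame gave like shares. Members whose length leaves a remainder of 1 after division by 3 numbered 8711, of which the authors' deposited table called 9.13% lower, and those with a remainder of 2 numbered 8148, of which it called 9.40%. Members called lower had a median length of 103 bases, against 115 for members not called. The introns beside them were also shorter, with medians of 1241 against 1558.5 bases on the 5′ side and 1369 against 1533 bases on the 3′ side. Frame-preserving exons called lower were alike, with a median length of 96 bases, against 108 for all frame-preserving exons. Their introns had medians of 1306 against 1541.5 bases on the 5′ side and 1478 against 1589 bases on the 3′ side. On the 25 chromosomes with at least 50 members, the share called lower ran from 6.79% on chromosome 7 to 11.6% on chromosome 8.

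The junction reads of both forms were set side by side, although members called lower from a wild type level near 1 must have more skipping reads in mutants. On the CPM scale, with junction reads divided by the gene count totals, the members called lower had a median of 0.0868 skipping reads in mutants and 0.00285 in wild types. Their inclusion reads were higher in mutants for 999 and lower for 562, and differed by less than 1.5-fold for 75.7%. Over all 16859 members they were higher in mutants for 11728 and lower for 5131, with a median log2 ratio of 0.17. The median log2 fold change of the genes that hold these members was 0.04 by edgeR, and the counts of inclusion reads were not adjusted for that offset. For the 234 members lower by 0.2 or more the median of the skipping reads was 0.219 in mutants and 0.00576 in wild types, while the median log2 ratio of inclusion reads was 0.05 (quartiles -0.42 and 0.40). The inclusion reads of these 234 were higher in mutants for 130 and lower for 104, and differed by less than 1.5-fold for 65.8%. Their medians were 0.675 in mutants and 0.799 in wild types. Among the 15262 members not called, the inclusion reads differed by less than 1.5-fold for 81.6%, with a median log2 ratio of 0.17, against 0.15 for all members called lower.

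The 10 largest drops in the authors' deposited table, among members with at least 20 junction reads and no overlap between genotypes, were in 9 genes. In CELA1, a pancreatic elastase, the exon of 101 bases at chr22:7443103-7443203 (GRCz10, plus strand) had inclusion levels of 0.086, 0.091, 0.094 and 0.116 in mutant replicates 1 to 4 and of 1.0 in all 4 wild types. It had 288, 5, 353 and 404 skipping reads in mutants and 0 in every wild type, and the level of mutant replicate 2 rests on 6 reads. CELA1 belongs to a family of similar elastase genes, so its reads may be shared with relatives.

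The complement factor B gene bfb had an exon of 151 bases at chr21:27404952-27405102 with levels of 0.333, 0.159, 0.105 and 0.099 in mutants and 0.955, 1.0, 0.991 and 1.0 in wild types. In itih3b, which encodes a heavy chain of the plasma inter-alpha-trypsin inhibitor, the exon at chr11:36911220-36911380 had levels of 0.173, 0.238, 0.164 and 0.286 in mutants, against 1.0, 1.0, 1.0 and 0.996 in wild types. The cytochrome P450 gene cyp4v8 had levels of 0.171, 0.133, 0.375 and 0.434 in mutants and 0.973, 0.988, 1.0 and 0.992 in wild types at chr1:17209868-17210058. In these 3 exons the highest mutant level is less than 0.5 and the lowest wild type level more than 0.9.

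The exon of 97 bases of PFKFB1, whose enzyme makes and breaks down fructose 2,6-bisphosphate, had mutant levels of 0.196, 0.429, 0.314 and 0.29 and wild type levels of 0.93, 1.0, 1.0 and 1.0. In ganc, an alpha-glucosidase gene, 2 overlapping exons of 41 and 103 bases share their skipping reads, 31, 32, 25 and 15 in mutants and 0 in every wild type, and are 1 observation (differences of -0.665 and -0.639 in the authors' deposited table). The guanine nucleotide exchange factor gene arhgef38 had levels of 0.402, 0.269, 0.216 and 0.583 in mutants and 1.0 in each wild type. Its mutants spread over a wider range than the wild types, as they do in PFKFB1 and ganc, which have 60.5 or fewer junction reads per library.

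The exon of 139 bases of hnrnph1, a regulator of splicing and polyadenylation, had levels of 0.224, 0.196, 0.197 and 0.254 in mutants and 0.791, 0.93, 0.909 and 0.91 in wild types (chr14:6688771-6688909). In akap8l, which encodes a nuclear protein that binds RNA helicase A, the exon of 496 bases at chr1:58525221-58525716 (minus strand) had 0.221, 0.157, 0.199 and 0.204 in mutants and 0.835, 0.804, 0.827 and 0.804 in wild types. With 2347.625 junction reads per library on average it is the deepest of the 10. It had 2267, 2311, 2379 and 2750 skipping reads in mutants, against 89, 130, 97 and 122 in wild types, while its inclusion reads were 1288, 862, 1184 and 1409 in mutants and 900, 1064, 929 and 1000 in wild types. The skipping reads were set apart between genotypes and the inclusion reads overlapped.

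The rises in the authors' deposited table were smaller, since a level of at least 0.8 leaves little room above. The exon of 70 bases of eef2a.1, which encodes the elongation factor that moves the ribosome along, had levels of 0.992, 0.974, 0.989 and 0.988 in mutants and 0.854, 0.911, 0.857 and 0.784 in wild types (chr22:20112062-20112131). Its inclusion reads numbered 704, 643, 704 and 650 in mutants, against 124, 99, 81 and 84 in wild types, and its skipping reads stayed between 3 and 9 in mutants and between 5 and 12 in wild types. Close relatives of this gene may share its reads. The SR protein gene srsf6b was alike in kind: its exon of 169 bases at chr11:1497943-1498111 had 0.999, 0.983, 0.991 and 0.996 in mutants and 0.891, 0.937, 0.93 and 0.919 in wild types, with 1251 to 1419 inclusion reads in mutants and 98 to 136 in wild types. In these 2 exons the inclusion reads moved and the skipping reads hardly did.

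The other 8 of the 10 largest rises without overlap lay between 0.021 and 0.108 in the authors' deposited table. They were in the dynamin gene dnm2a (0.108), olfm2b (0.106), the caspase gene casp6l1 (0.102), the acyl-CoA thioesterase gene acot9.1 (0.081), slmapa (0.078), FKBP15 (0.048), rbm4.2 (0.027) and syncrip (0.021). In olfm2b and casp6l1 the mutants had 0 skipping reads and the wild types 1 to 5 per library, so these rest on few reads.

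**Figure D3:**
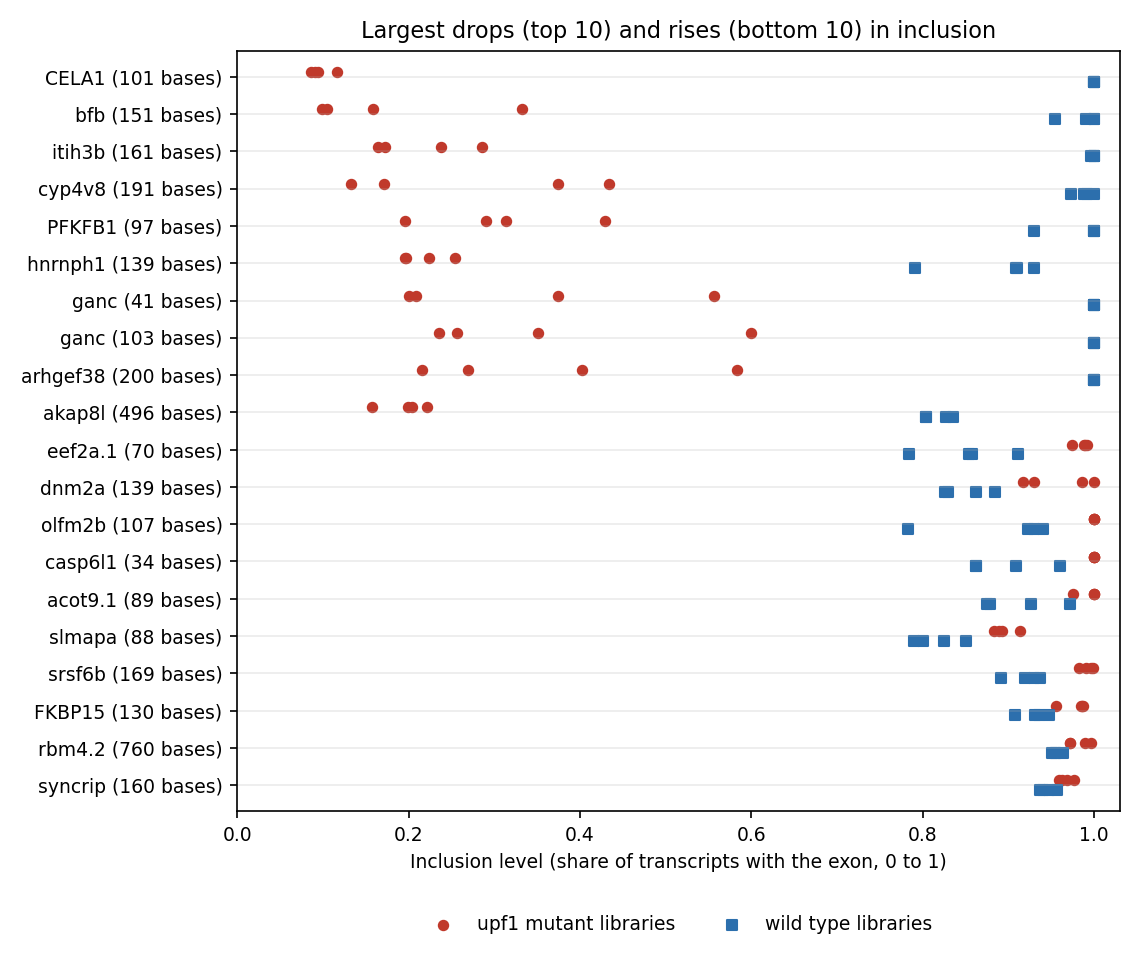
Inclusion level (x axis, 0 to 1) of the 10 exons with the largest drops and the 10 with the largest rises in mutants, 1 point per library, with mutants as circles and wild types as squares. The drops span mutant levels of 0.086 to 0.6 against wild type levels of 0.791 to 1.0, and the rises all lie at or above 0.783.

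The gene lists below describe where the called exons lie, beside the values over all members. Their counts are of events, so an exon in 2 events, or overlapping versions of it, can count more than 1 time. Of all 16859 members the authors' deposited table called 9.26% lower, and 234 by at least 0.2. Of 138 members in splicing regulator genes it called 29 lower in 26 genes (21.01%) and 2 higher, and 14 were lower by at least 0.2. The list's median difference was -0.001 and that of all members -0.005, so most of the list was near 0 and a part of it far from it. Its largest differences were in hnrnph1, in the SR-related gene srsf11 (-0.625, from 14.6 junction reads per library), in clk2a and in hnrnph3. The Clk kinases phosphorylate SR proteins, and in clk2a 2 overlapping exons of 94 and 91 bases, which share their skipping reads, had levels of 0.278, 0.275, 0.291 and 0.239 in mutants and 0.805, 0.911, 0.914 and 0.869 in wild types for the longer one. In hnrnph3 the levels were 0.353, 0.365, 0.345 and 0.415 in mutants and 0.906, 0.87, 0.92 and 0.889 in wild types. In clk2a and hnrnph3 the mutants lie close together and far below the wild types. In srsf11 wild type replicate 2 was at 0.333 and the other wild types at 1.0, beside 0.116 to 0.316 in mutants.

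Related genes had called exons of the same length, an observation made after the values were seen. An exon of 139 bases was called in hnrnph1, hnrnph1l and hnrnph3, with mutant means of 0.218, 0.520 and 0.370 and wild type means of 0.885, 0.909 and 0.896. An exon of 34 bases was called in the polypyrimidine tract binding protein genes ptbp1a (0.417 in mutants, 0.873 in wild types) and ptbp2a (0.770 in mutants, 0.970 in wild types), and the ptbp2b exon just below the threshold has that length too. An exon of 115 bases was called in hnrnpua (0.568 in mutants, 0.970 in wild types) and hnrnpub (0.782 in mutants, 0.955 in wild types). Exons of related genes may share reads, and each pair's levels differ.

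**Figure D4:**
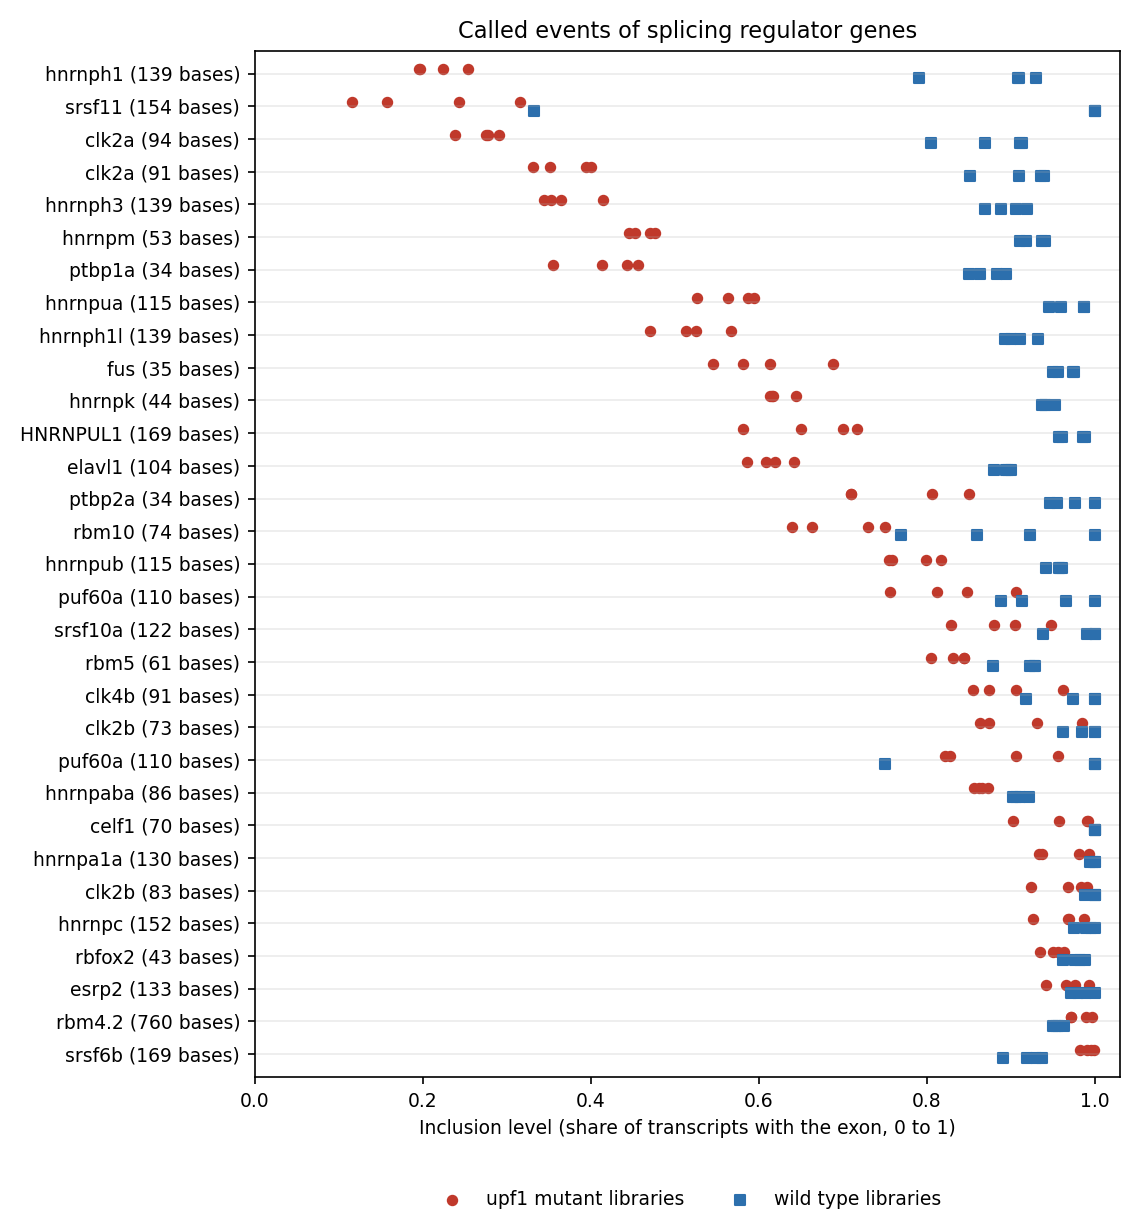
Inclusion level (x axis, 0 to 1) of the 31 called events of splicing regulator genes, ordered by difference (an exon of puf60a is in 2 of them), 1 point per library, with mutants as circles and wild types as squares. The exon lengths beside the symbols show 139 bases in 3 hnRNP H genes, 34 bases in 2 PTB genes and 115 bases in 2 hnRNP U genes, and rbm4.2 and srsf6b at the bottom are the 2 with higher inclusion in mutants.

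Core spliceosome genes had 4 of 69 members called lower in the authors' deposited table (5.80%), and 3 of them were lower by at least 0.2. They were snrpa1, a protein of the U2 particle, with 0.382, 0.453, 0.461 and 0.444 in mutants and 0.948, 0.942, 0.9 and 0.882 in wild types, u2surp, which is tied to the same particle, with means of 0.518 in mutants and 0.883 in wild types, and the cyclophilin-type gene ppil4, with 0.742 in mutants and 0.998 in wild types. NMD and exon junction genes had 4 of 42 called lower (9.52%) and 0 higher. The list includes the poly(A)-binding protein gene pabpc1a, where the difference of -0.013 rests on 11232.375 junction reads per library, and nbas, where one of -0.263 rests on 15.375. In nbas the mutants had 0.587, 0.931, 0.681 and 0.751 and the wild types 1.0 each, from 4 to 9 inclusion reads per wild type library. The apoptotic chromatin condensation inducer gene acin1b, an exon junction partner, had a difference of -0.043.

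Of 129 members in initiation and elongation factor genes the authors' deposited table called 17 lower (13.2%), 0 of them by 0.2 or more, and 1 higher. In eif2s2, the beta subunit of the factor that brings the initiator tRNA, the mutants had 75, 20, 59 and 47 skipping reads beside 2764 to 3149 inclusion reads, and the wild types 0 beside 2218 to 2972. In eif6, which keeps the ribosomal subunits apart, inclusion was 0.91, 0.936, 0.974 and 0.974 in mutants and 0.998 to 1.0 in wild types, and in eif3ja the difference was -0.043. These exons had levels above 0.9 in every library, and the wild types together had 0 skipping reads in eif2s2 and eif3ja and 1 in eif6.

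Of 75 members in aminoacyl-tRNA synthetase genes the authors' deposited table called 13 lower (17.3%) and 0 higher. EARS2, the mitochondrial glutamyl enzyme, had 0.676, 0.82, 0.7 and 0.59 in mutants and 0.963, 0.972, 0.95 and 1.0 in wild types. The bifunctional cytosolic enzyme gene eprs had 0.911, 0.918, 0.888 and 0.912 in mutants, against 0.993 to 1.0 in wild types, and the phenylalanyl subunit gene farsb had a mean of 0.938 in mutants and 1.0 in wild types. Ribosomal protein symbols had 3 of 99 members called lower (3.03%), the lowest share of the lists with a call, at a median of 24120.38 junction reads per library. One of them, rps6kal, is a kinase gene that the symbol pattern took in. In rpl5a the skipping reads numbered 340, 241, 373 and 342 in mutants and 7, 10, 4 and 5 in wild types, beside 21923 to 32721 inclusion reads in mutants and 32288 to 46404 in wild types, and in rpl9 the difference was -0.007 and the groups overlapped.

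Chromatin regulator genes had 16 of 191 members called lower in the authors' deposited table (8.38%), each by less than 0.2. The histone demethylase gene kdm1a had 91, 55, 71 and 57 skipping reads in mutants and 0 in every wild type, with levels of 0.828 to 0.884 in mutants and 1.0 in wild types. The demethylase gene kdm5bb had levels of 0.835 to 0.869 in mutants and 0.994 to 1.0 in wild types, while in the remodeller gene chd4b mutant replicate 3, at 0.982, reached the lowest wild type. Of 124 members in DNA replication and repair genes the table called 18 lower (14.5%), with ercc8 at 0.844 in mutants and 0.984 in wild types. The exon of the helicase gene mcm8 had 0.882, 0.471, 0.176 and 0.455 in mutants and 1.0 in each wild type, from 19.5 junction reads per library. The third gene named from this list, parp12a, was taken in by the symbol pattern and is not known as a repair gene.

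Genes of muscle, nerve and matrix had shares near or below that of all members in the authors' deposited table: 10 of 120 sarcomere members were called lower (8.33%), 18 of 261 in channel and synapse genes (6.90%) and 13 of 173 in matrix and adhesion genes (7.51%). The alpha-actinin gene actn2b had 0.429, 0.496, 0.58 and 0.603 in mutants and 0.918, 0.937, 0.98 and 0.893 in wild types, and TPM1, a tropomyosin, a mean of 0.826 in mutants and 0.997 in wild types. In pdlim1 the mutant difference was uneven, with 53 skipping reads in mutant replicate 3 and 3 to 16 in the others. GABRG1, a GABA receptor subunit, had 0.588, 0.614, 0.493 and 0.591 in mutants and 0.953, 1.0, 1.0 and 0.973 in wild types. The scaffold gene dlg1l had called exons of 97 and 34 bases with the same skipping reads (differences of -0.405 and -0.17), and the groups overlapped at the shorter one. The integrin gene itga6a had a mean of 0.620 in mutants and 0.934 in wild types, with differences of -0.137 in itga3b and -0.153 in the collagen gene col15a1b.

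Of 112 members in oxidative phosphorylation and mitochondrial ribosome genes the authors' deposited table called 12 lower (10.7%) and 0 higher. In the mitochondrial ribosomal protein gene mrpl4 2 overlapping exons share 41, 8, 44 and 40 skipping reads in mutants and 0, 0, 0 and 2 in wild types. The complex I gene ndufa7 had 0.945, 0.96, 0.899 and 0.895 in mutants and 0.998, 0.985, 0.999 and 0.989 in wild types. The T cell and thymocyte list held 8 members in 4 genes, of which 0 were called in either direction by the authors' FDR, with a median difference of -0.001. Too few of that list's genes have such an exon with enough reads to describe T cells from these data.

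Some genes had several called exons, counted by exact start and end, a group chosen after the values were seen. In the authors' deposited table all 5 member exons of acot11a, an acyl-CoA thioesterase gene, were lower, with mutant means of 0.780 to 0.940 and wild type means of 0.979 to 1.0. In pank4, of the pantothenate kinase family, 5 of 6 were lower, and 4 of 5 were lower in cyp4v8, tsnaxip1 and the vesicle tethering gene vps52. In these 3 genes mutant means ran from 0.278 to 0.946 and wild type means from 0.940 to 1.0. Most genes differ from these: 4626 have 1 member, and ryr3, with 20, has the most.

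The level of the genes that hold the exons comes from the gene counts, which were not used to choose members but include the reads of the exon itself. It is not independent of the choice. The rule averages junction reads over all 8 libraries, and 10445 members had skipping reads in mutants only. A gene with more reads in mutants can pass more easily, and the part of this in the shares below was not tested. Of 8784 such genes tested, edgeR called 1183 higher in mutants (13.5%) and 482 lower (5.49%), against 9.1% higher and 5.11% lower of all 23680 genes tested. Of the 1334 genes with a member called lower, 346 were higher (25.9%) and 72 lower (5.40%). Of the 215 genes with a member lower by 0.2 or more, 108 were higher (50.2%) and 4 lower (1.86%), with a median log2 fold change of 0.48. Where every called drop was under 0.1 the share was 19.9% of 783 genes, and where no member was called it was 11.2% of 7419. The share of genes higher in mutants was thus larger where the drop was larger, while 103 of the 215 with the largest drops were not called either way. Genes holding a frame-preserving exon called lower were higher in 13.9% of 353 and lower in 7.08%.

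Leaving out 1 library moved many of these counts. The 108 of the 215 became 90 to 108 and the 346 became 242 to 362. Without wild type replicate 3, genes higher in mutants made up 12.5% of those with drops under 0.1, 7.36% of those with no member called and 5.93% of all genes, beside 43.7% of those with a drop of 0.2 or more. The 482 host genes lower in mutants became 277 when mutant replicate 1 was left out, 284 when wild type replicate 3 was, and 274 when wild type replicate 4 was. The 4 lower genes among the 215 became 2 when mutant replicate 1 was left out, or either of wild type replicates 2 and 4. The share of all genes lower was 2.85% when mutant replicate 1 was left out, and 3.39%, 2.80% and 2.81% when wild type replicates 1, 3 and 4 were. For genes with a frame-preserving exon called lower, the share higher was 9.07% when wild type replicate 3 was left out, and the share lower was 3.68% and 4.53% when mutant replicates 1 and 3 were and 3.966%, 3.966% and 3.399% when wild type replicates 1, 3 and 4 were. The 215 genes had a median level of 13.9 CPM, against 21.1 CPM for all host genes and 9.90 CPM for all genes tested. The part of depth in these shares was not tested.

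**Figure D5:**
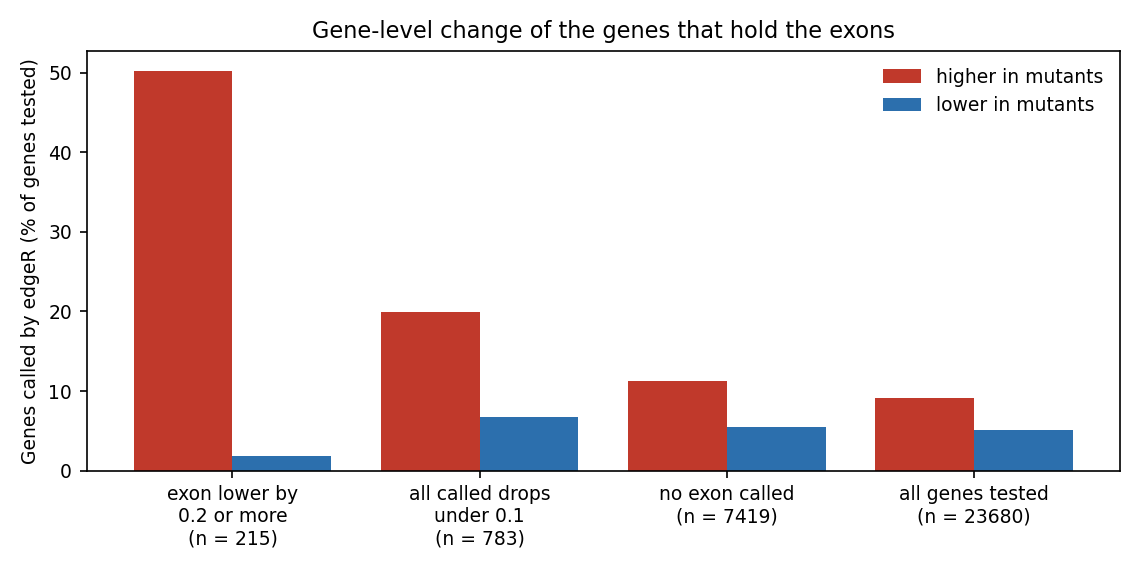
Share of genes called higher or lower in mutants by edgeR (y axis, in percent of the genes tested), for genes with an exon lower by 0.2 or more, genes whose called drops are all under 0.1, genes with no exon called, and all genes tested. Genes higher in mutants make up 50.2%, 19.9%, 11.2% and 9.1% of these groups.

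Of the genes with the largest drops, hnrnph1, akap8l and arhgef38 were higher, itih3b and cyp4v8 lower, and CELA1, bfb, PFKFB1 and ganc not called. The gene counts of hnrnph1 were 88.9, 94.2, 88.8 and 97.9 CPM in mutants and 16.5, 19.3, 18.4 and 18.8 CPM in wild types (5.06-fold, SE 0.0774 on the log2 scale, adjusted p = 5.97e-07). Those of akap8l averaged 494 ± 39.1 CPM in mutants and 151 ± 13.4 CPM in wild types (SD, n = 4 each; 3.27-fold, adjusted p = 8.66e-06 by edgeR), and those of arhgef38 7.12 ± 0.780 CPM in mutants and 4.14 ± 0.926 CPM in wild types (1.72-fold, adjusted p = 0.0149 by edgeR). In itih3b the level fell to 38.0 ± 4.31 CPM in mutants, against 70.1 ± 11.5 CPM in wild types (log2 fold change -0.88, adjusted p = 0.00217 by edgeR). In cyp4v8 it was 9.69 ± 3.61 CPM in mutants and 26.5 ± 10.9 CPM in wild types (log2 fold change -1.45, adjusted p = 0.0185 by edgeR), a call lost without mutant replicate 3 (adjusted p = 0.0509). CELA1 had 18.3, 0.78, 25.2 and 29.4 CPM in mutants and 17.0 to 21.4 CPM in wild types.

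Among the largest rises in inclusion, the genes eef2a.1 and srsf6b were higher. The counts of eef2a.1 averaged 115 ± 6.83 CPM in mutants and 23.5 ± 3.07 CPM in wild types (SD, n = 4 each; 4.90-fold, adjusted p = 2.34e-06 by edgeR), and those of srsf6b 316 ± 27.1 CPM in mutants and 149.7 ± 10.6 CPM in wild types (2.11-fold, adjusted p = 9.54e-05 by edgeR). The gene olfm2b was lower (log2 fold change -0.75, adjusted p = 0.0115 by edgeR). Those of casp6l1, slmapa and FKBP15 had adjusted p of 0.0387, 0.0431 and 0.0299 by edgeR. With 1 library left out their log2 fold changes stayed at -0.892 to -0.648, -0.244 to -0.208 and 0.249 to 0.340. The calls were nevertheless lost in many of those fits. That of casp6l1 was lost without any of mutant or wild type replicates 1 to 3 (up to 0.104), that of slmapa without any library (up to 0.119) and that of FKBP15 without any of mutant or wild type replicates 1, 3 and 4 (up to 0.0828). The genes dnm2a, acot9.1, rbm4.2 and syncrip were not called.

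In the lists, edgeR called the genes of hnrnph3 (2.13-fold), snrpa1 (2.11-fold), EARS2 (2.21-fold), eprs (1.98-fold), farsb (1.62-fold), nbas (1.60-fold), ppil4 (1.55-fold), ercc8 (1.52-fold), u2surp (1.51-fold), itga6a (1.48-fold) and clk2a (1.31-fold) higher in mutants, under all 15 other settings too. Those of mcm8, kdm1a and rps6kal were also higher and those of rpl5a, rpl9, pabpc1a and col15a1b lower. All of these calls but that of rps6kal were lost in some fits with 1 library left out. The call of mcm8 was lost without wild type replicates 3 or 4 (adjusted p up to 0.0554 by edgeR), and that of rpl5a without mutant replicates 1 or 3 (up to 0.0661). The calls of kdm1a and pabpc1a were each lost when mutant replicate 1 was left out, or any of wild type replicates 1, 3 and 4 (up to 0.0755 and 0.0822), that of pabpc1a also without mutant replicate 3. The call of rpl9 was lost without any of mutant replicates 1 to 3 or wild type replicates 1 or 4 (up to 0.0940), and that of col15a1b without any 1 library except mutant replicate 2 (up to 0.1104). The genes actn2b, GABRG1, eif2s2 and kdm5bb were not called.

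The host genes with the largest changes of level were others than those with the largest drops. The 5 largest rises were in si:ch73-295i22.2 (201 to 239 CPM in mutants, 4.81 to 7.38 CPM in wild types, log2 fold change 5.13), the glucokinase gene gck, si:dkey-23i12.5 (27.9-fold), si:ch211-209a2.1 (26.2-fold) and bmb (12.9-fold). In gck the mutants had 55.5, 3.83, 76.1 and 2.39 CPM and the wild types 0.711 to 1.64 CPM, a call (adjusted p = 0.0169 by edgeR) that was lost without wild type replicates 3 or 4 and with limma voom (adjusted p = 0.0545, 0.0539 and 0.191). The 5 largest falls were in cyp2ad2 (6.47 to 9.22 CPM in mutants, 48.9 to 58.5 CPM in wild types), si:dkey-266f7.9 (log2 fold change -2.42), C20H6orf58 (-2.12), the class II chaperone gene cd74b (-2.06, lost without mutant replicate 1 at an adjusted p of 0.0623 by edgeR) and the complement inhibitor gene serping1 (-1.87). Of the 5 members in si:dkey-23i12.5, the authors' deposited table called 1 lower, with means of 0.877 in mutants and 0.983 in wild types. The others of these 10 genes hold 1 to 4 members each, with 0 called lower. Of all members 9.26% were called lower, so nothing is read from so few.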

How the data were processed

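PolyA RNA of 8 whole-larva libraries was measured. Of the upstream tools, the submitters' processing notes name featureCounts, TopHat2 2.0.13 and STAR 2.5.2b with no step for each, and the build GRCz10. The authors deposited raw gene counts, and their skipped exon table holds junction read counts, inclusion levels (a fraction), p-values and FDR values; its column names, per the file headers, are those of rMATS. Its version, its annotation and the strand setting are not stated in any source used. Reads of genes that overlap, on either strand, may therefore be mixed. A skipped form covers 74 bases of target and an included form 148 for most events.

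Inclusion was described from the deposited levels. Counts were tested over all genes with edgeR 4.0.16 (quasi-likelihood, TMM, filterByExpr with a minimum count of 10 and a minimum total of 15) in R 4.3.3, with Benjamini-Hochberg adjustment at 0.05. CPM uses the same scaling. The SE of a log2 fold change was worked back from the test, as its size divided by the square root of the F statistic. Junction reads were put on the CPM scale with the gene count totals, and their ratios had a pseudocount of 0.01. Counts were simulated for this comparison over 23412 genes, of which 200 were changed. There edgeR found 14.9% of the genes given a 1.5-fold change, 55.2% of those given 2-fold and 95.5% of those given 4-fold, and 6 of its 116 calls were false. In the data edgeR called 14.2% of all genes in either direction, a larger share than was changed in the simulation, so recovery there may differ. Alternatives were other scalings and filters, DESeq2 1.42.0, limma 3.58.1 (voom), a replicate block and leaving out each library. Python 3.11.15 with pandas 2.3.3, numpy 2.4.6 and matplotlib 3.10.9 did the rest.

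The members, the 13 gene lists and the rules were chosen with earlier results of these data known. Named exons were the 10 largest drops and rises at an FDR under 0.05 with at least 20 junction reads and no overlap, up to 3 more per list by FDR, those nearest 0.8, and the 5 largest host gene rises and falls whose mean log2 CPM reached 1. Coding status and exon sequences were not analysed here, nor were the other splicing classes or the transcript table. The result of 1 exon nearest the threshold is not reported here.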

Additional observations from a re-analysis of the deposited data

Results flagged for a closer look

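Of 80 sets of 4 libraries checked, over the exons with the largest drops and rises, the host genes with the largest changes and the values per library, 6 had 1 library whose gap to the nearest other was past Dixon's critical share of the range. Chance passes it in about 1 in 20 sets where values are normally distributed, which inclusion levels near 1.0 are not. Where 3 libraries tie at 1.0, as for the acot9.1, itih3b and PFKFB1 exons, any lower value in the remaining library passes it. In mutants, the inclusion level of the acot9.1 exon was 0.975 in replicate 2 and 1.0 in the other 3, and that of the FKBP15 exon was 0.956 in replicate 4 and 0.985 to 0.987 in the others. In wild types, the itih3b exon had 0.996 in replicate 4 and 1.0 in the others, from 1 skipping read, and the PFKFB1 exon had 0.93 in replicate 1 and 1.0 in the others, from 3 skipping reads. The hnrnph1 exon had 0.791 in wild type replicate 1, with 17 skipping reads, and 0.909 to 0.93 in the other wild types. The olfm2b exon had 0.783 in wild type replicate 4, with 5 skipping reads, and 0.923 to 0.941 in the others.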

How the results depend on the processing

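The count of members stayed between 14680 and 16943 under 6 other thresholds, and was 6414 when a skipping read in a wild type library was required, a choice made after the data were seen. Members lower in mutants in the authors' deposited table were 1278 to 1581 under the other settings, 622 with a difference of at least 0.1 and 922 with the wild type skipping read. Those higher were 26 to 49, but 8 with a difference of at least 0.1 and 23 at a threshold of 0.9. The median difference was -0.00525 to -0.00433 with 1 library left out and -0.00508 with pooled reads. Host genes higher in mutants numbered 793 to 1245 with 1 library left out, and 719 with the replicate block. Host genes lower numbered 274 to 520 with 1 library left out, 825 with the DESeq2 Wald test and 242 with the block. Same-numbered libraries of the 2 genotypes did not deviate together (correlations 0.023, 0.034, -0.067 and -0.051). Whether they share a clutch is not given, and pairing was not tested beyond this. The block also ended the calls of cyp4v8, gck, rps6kal, rpl5a, rpl9, kdm1a, pabpc1a, col15a1b, casp6l1, slmapa and FKBP15. Over the named host genes, 967 of 1035 values kept their side of the threshold, 62 lost a call, 6 gained one and 0 of the called ones turned direction. The authors' FDR was not recomputed with libraries left out. Levels of exons with few junction reads, such as those of nbas and mcm8, are the least precise.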
